A study of Mus musculus with 6 samples.

Results

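The genes described here carry heme across membranes, bind it, sense it or reduce the bile pigment made from it. They were chosen by symbol and comprise Slc48a1, Flvcr1, Flvcr2, Slc46a1, Pgrmc1, Pgrmc2, Hebp1, Bach1, Blvra and Blvrb, 10 of the 24411 genes listed for each library. Of these, 8 are named by the same symbol in the deposited tables. The other two are listed under older symbols, Flvcr1 as Mfsd7b and Flvcr2 as Mfsd7c, and were matched through the RefSeq synonym together with a shared transcript accession. All 10 passed the filter on low counts.

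Whole testes of age-matched C57BL/6 mice, a common inbred strain, were sequenced as total RNA from 3 mice of the genotype MRP5-/- and MRP9-/- (DKO, for double knockout) and 3 mice labelled Wildtype (WT). MRP5 and MRP9 are ABC transporters encoded by Abcc5 and Abcc12, and MRP5 is known as a heme exporter. The labels give neither the age nor the construction of the alleles. Because whole tissue was used, fewer cells of a type and less RNA per cell cannot be told apart in any value below.

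Heme is an iron-porphyrin that serves as the prosthetic group of cytochromes and other enzymes, and it is toxic when free, so cells move it between compartments on carriers and chaperones. Heme oxygenases open the ring to biliverdin, and biliverdin reductases turn biliverdin into bilirubin. BACH1 is a repressor that is released from DNA when heme binds it, which couples heme to the genes for its own breakdown and for iron storage. In the testis, the steroid-producing Leydig cells rely on heme for their cytochromes P450.

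Total expected counts ranged from 42673615 to 67131103 in the DKO libraries and from 26753721 to 31745969 in the WT libraries, without overlap, and mean fragment length also did not overlap (275 to 317 bases in DKO, 230 to 258 bases in WT). Summed spermatid markers lay between 100157 and 117671 TPM, a level scaled by transcript length and library, in every library. Abcc12 was counted at 82.1, 82.4 and 72.6 CPM, the count scaled by library size, in DKO and at 165, 158 and 158 CPM in WT, a log2 fold change of -1.02 (SE 0.0739, adjusted p = 0.000307 by edgeR). Abcc5 was counted at 17.0, 16.7 and 16.8 CPM in DKO and 10.5, 12.3 and 11.4 CPM in WT, so its transcript was higher, not lower, in the libraries labelled DKO (log2 fold change 0.56, SE 0.0896, adjusted p = 0.0225 by edgeR). Transcript amount summed over a whole gene does not show whether an exon is missing.

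Sequence upstream of the annotated start was available in the RefSeq table (GRCm38.p6) for 9 of the 10 genes. It is shown for the 2 biliverdin reductases, of which Blvrb fell and Blvra did not pass the test, and for Pgrmc1 and Flvcr1, the heme-binding protein and the heme exporter with the next smallest p and with higher CPM in every DKO library, respectively. Each run is the 250 bases before a start that the table gives, 5′ to 3′ on the gene's strand. For Blvra that start lies inside the outermost limits of the gene, so the last 28 bases of its run, with the CCAAT box, fall within the gene. The bases after the start were found near the start of a GENCODE transcript for Blvra and Blvrb, but not for Pgrmc1 and Flvcr1. The motif counts of Pgrmc1 and Flvcr1 therefore rest on the RefSeq start alone. Capitals mark matches, on either strand, to the GC box GGGCGG, the CCAAT box CCAAT, the E-box CACGTG and the antioxidant response element core TGACNNNGC, the sequence at which BACH1 and NRF2 compete; neighbouring matches can run together.
Blvrb (chr7:27447728-27447977, plus strand): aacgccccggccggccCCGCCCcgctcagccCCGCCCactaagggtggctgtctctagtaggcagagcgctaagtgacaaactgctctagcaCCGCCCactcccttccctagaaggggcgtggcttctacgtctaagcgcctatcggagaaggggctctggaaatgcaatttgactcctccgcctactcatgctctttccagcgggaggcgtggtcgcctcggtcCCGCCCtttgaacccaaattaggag
Blvra (chr2:127070407-127070656, plus strand): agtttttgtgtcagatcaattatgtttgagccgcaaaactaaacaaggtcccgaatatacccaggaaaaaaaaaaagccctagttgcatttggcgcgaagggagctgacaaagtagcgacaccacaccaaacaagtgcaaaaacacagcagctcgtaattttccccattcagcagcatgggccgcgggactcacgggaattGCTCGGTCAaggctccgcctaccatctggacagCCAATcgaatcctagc
Pgrmc1 (chrX:36597943-36598192, plus strand): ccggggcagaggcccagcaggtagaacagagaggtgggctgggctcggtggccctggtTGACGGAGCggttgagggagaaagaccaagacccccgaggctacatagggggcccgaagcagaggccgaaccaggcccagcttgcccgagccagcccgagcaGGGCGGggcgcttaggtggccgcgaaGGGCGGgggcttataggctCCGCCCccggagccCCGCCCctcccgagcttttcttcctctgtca
Flvcr1 (chr1:191026191-191026440, minus strand): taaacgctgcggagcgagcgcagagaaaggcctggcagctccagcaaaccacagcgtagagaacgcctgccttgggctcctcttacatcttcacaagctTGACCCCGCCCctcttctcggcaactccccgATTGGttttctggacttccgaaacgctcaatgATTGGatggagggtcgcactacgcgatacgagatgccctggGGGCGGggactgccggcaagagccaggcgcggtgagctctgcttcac

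The Blvrb window held 4 GC boxes and no match to the other 3 motifs, and the window before the second annotated start of Blvrb, not shown, held none of the 4. The Blvra window had no GC box, 1 antioxidant response element core and 1 CCAAT box. The Pgrmc1 window held 4 GC boxes and 1 antioxidant response element core, and the Flvcr1 window held 2 GC boxes, 2 CCAAT boxes and 1 antioxidant response element core. Of all 32851 promoter windows of the same length, 32.7% held the GC box, 33.8% the CCAAT box, 6.02% the E-box and 10.2% the antioxidant response element core. E-boxes were found once each upstream of Flvcr2, Hebp1 and Pgrmc2. The longer Maf recognition element, searched in its consensus form and present in 0.134% of windows, was not found upstream of any of the 9 genes. These matches describe letters in the windows and were not tied to binding or to the expression values.

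Across the 10 genes, 1 was called, Blvrb, and it was lower in DKO (edgeR quasi-likelihood test, adjusted p under 0.05 over 17110 tested genes). Over all tested genes 10.8% were called, 5.75% higher and 5.1% lower, so 1 of 10 is close to the background. In CPM the groups did not overlap for 3 of the 10 genes, Blvrb, Slc48a1 and Flvcr1, against 35.9% of all tested genes. In TPM they did not overlap for 4 of the 10, Blvrb, Slc48a1, Pgrmc1 and Pgrmc2, against 33.2% of all tested genes. An unadjusted p under 0.05 was reached by 3 of the 10, Blvrb, Pgrmc1 and Slc48a1, against 31.7% of all tested genes. Of the 10 log2 fold changes 8 were negative, and their median was -0.11, beside -0.0042 for all tested genes, of which 49.3% were positive. All values per library are given as CPM after TMM scaling where a gene is compared between groups, and as TPM where genes are compared with each other.

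**Figure D1:**
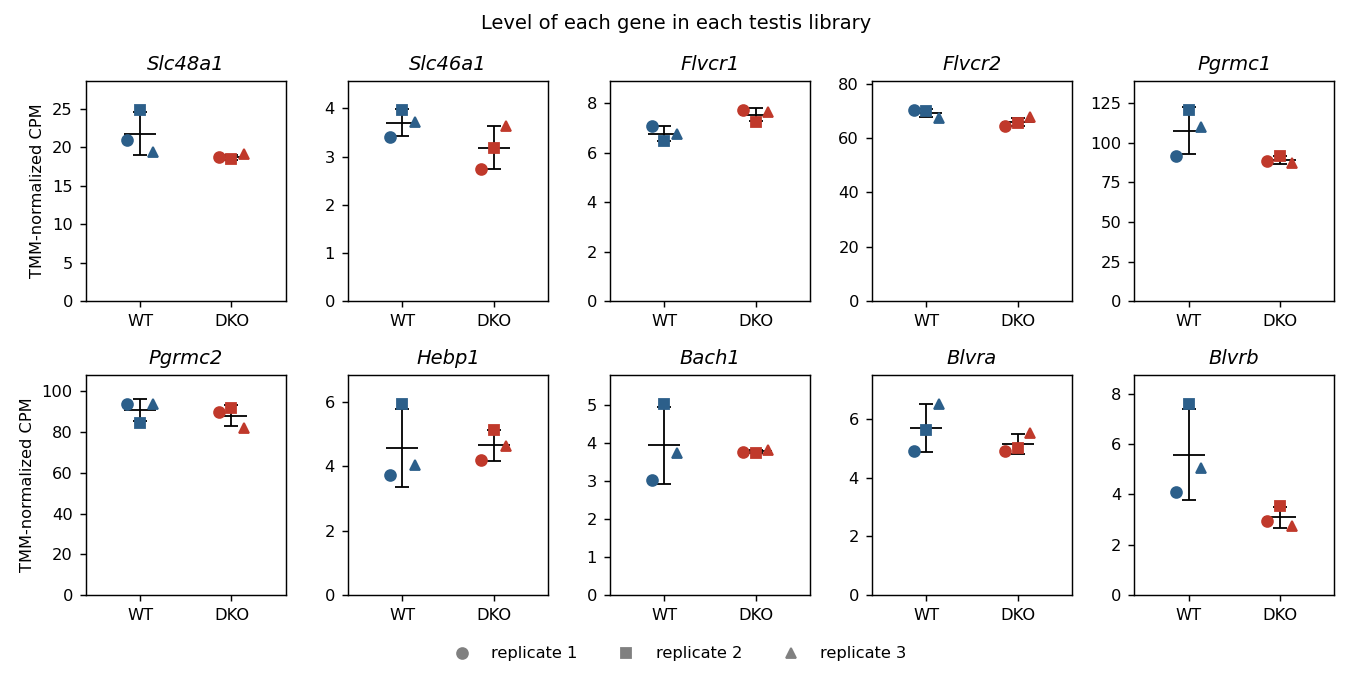
TMM-normalized CPM (vertical axis, from 0) of each of the 10 genes in the 3 WT (blue) and 3 DKO (red) libraries; symbols mark the replicate, horizontal bars the mean and error bars the SD. Blvrb is lower in all 3 DKO libraries (2.75 to 3.54 CPM) than in any WT library (4.10 to 7.61 CPM), and for most genes the WT points are more spread than the DKO points.

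Blvrb encodes biliverdin reductase B, also known as flavin reductase, which acts on biliverdin of the beta form and on flavins and is abundant in red blood cells and liver. The gene lies at chr7:27447978-27465981 on the plus strand, and 2 transcripts of it were counted. Blvrb was counted at 2.96, 3.54 and 2.75 CPM in the DKO libraries and at 4.10, 7.61 and 5.04 CPM in the WT libraries. All 3 DKO values were below all 3 WT values, and WT replicate 2 stood above the other two WT libraries. The means were 3.08 ± 0.411 CPM in DKO and 5.58 ± 1.82 CPM in WT (SD, n = 3 each). Blvrb fell to 54.7% of the WT level, a log2 fold change of -0.87 (SE 0.206; adjusted p = 0.0335 by edgeR). The counts behind these values ranged from 108 to 255 fragments per library.

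The call on Blvrb depended on single libraries. Without WT replicate 2 the log2 fold change was -0.59 (adjusted p = 0.109 by edgeR), without WT replicate 3 it was -0.94 (0.101), without DKO replicate 1 it was -0.86 (0.135) and without DKO replicate 2 it was -0.99 (0.0553). It was called without DKO replicate 3 and without WT replicate 1, at -0.79 and -1.06. In every one of the 15 alternative fits Blvrb was lower in DKO, and 8 of them called it, with adjusted p from 0.00111 to 0.999 over all 15. These fits differed in how much of the whole table they called. Leaving out 1 library, the share of all tested genes called was 0.0643%, 3.83% and 17.7% without DKO replicates 1, 2 and 3, and 11.7%, 0.0747% and 0.0402% without WT replicates 1, 2 and 3. With all libraries it was 11.1% with DESeq2 size factors, 11% with no count filter, 14% with a mean count of at least 50, 10.2% with the effective-length offset, 11.3% after thinning, 17.2% with DESeq2, 4.3% and 5.53% with limma on log2(TPM + 1) and log2(TPM + 0.1), and 0.00584% with fragment length as a covariate.

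**Figure D2:**
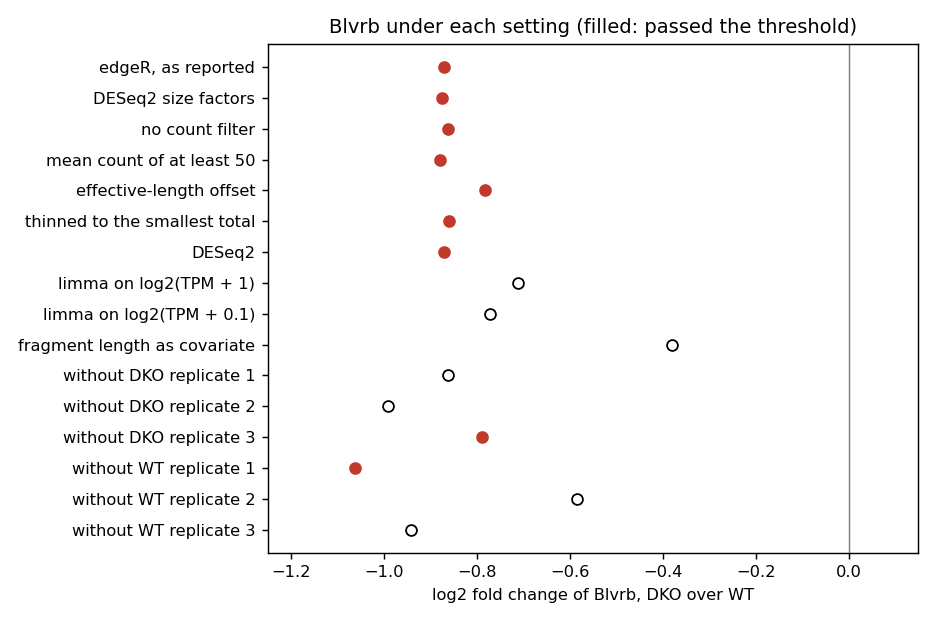
Log2 fold change of Blvrb, DKO over WT (horizontal axis), in the edgeR fit as reported and in each of 15 alternatives (vertical axis); filled points passed an adjusted p of 0.05 and open points did not. All points lie below 0, from -1.06 without WT replicate 1 to -0.38 with fragment length as a covariate.

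Blvrb has a short transcript of 865 bases and belongs to the shortest of 10 equal length classes of tested genes. In that class the median log2 fold change was -0.15, and 16.0% of genes were called lower and 4.27% higher. With an offset from the effective length of each gene in each library, Blvrb was at -0.78 and was called (adjusted p = 0.0396 by edgeR). After thinning every library to the smallest total it was at -0.86 and was called (adjusted p = 0.0337 by edgeR). With mean fragment length as a covariate, a fit in which 1 gene of the whole table was called, Blvrb was at -0.38 (adjusted p = 0.999 by edgeR). Fragment length did not overlap between the groups, so genotype and fragment length cannot be told apart in that fit. The abundance-weighted transcript length of Blvrb was 865 bases in 5 libraries and 864 bases in DKO replicate 3. Because the value moved in that library, its 2 transcripts differ in length. The equal value in the 5 libraries therefore shows the same estimated mix in each of them.

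Markers of somatic cells were read beside Blvrb. The summed level of 8 Leydig cell markers was 1230, 1521 and 864 TPM in DKO and 1499, 3146 and 1969 TPM in WT. These ranges overlapped, and WT replicate 2 was again the highest library. Of the 8 Leydig genes 3 were called, all lower (Star, Hsd3b6 and Insl3). By direction 7 were lower and 1, Hsd3b1, was higher (log2 fold change 0.21, not called). Insl3, a Leydig cell hormone and the most abundant of them, had a log2 fold change of -1.12 (SE 0.278, adjusted p = 0.0358 by edgeR). It made up most of each sum, at 877, 1193 and 582 TPM in DKO and 1215, 2576 and 1503 TPM in WT. At 587 bases Insl3 is in the shortest length class with Blvrb, and its counts carried fractions in all 6 libraries. The summed level of 10 macrophage markers was 71.5 to 87.7 TPM in DKO and 71.6 to 133 TPM in WT. Of the 10, 0 were called by edgeR (4 at an unadjusted p under 0.05). Those 4 did not share a direction: Cd68, C1qc and Lyz2 were lower, and Mrc1 was higher (log2 fold change 0.21). Mrc1 was the only macrophage gene whose groups did not overlap in CPM. In TPM, 10 of 10 macrophage genes and 10 of 11 Sertoli cell genes were highest among the WT libraries in WT replicate 2, and in CPM 9 of 10 and 7 of 11 were. The 11 Sertoli genes summed to 1028 to 1270 TPM in DKO and 1158 to 1508 TPM in WT, with 3 called, all lower. By direction 9 Sertoli genes were lower and 2 were higher. Among germ cell lists, 8 spermatocyte markers summed to 832 to 1035 TPM in DKO and 745 to 799 TPM in WT with 2 called, both higher. By direction 6 spermatocyte markers were higher and 2 were lower. Over all tested genes 10.8% were called. The 8 spermatogonia markers overlapped at 81.5 to 97.3 against 82.1 to 97.6 TPM with 0 called by edgeR (0 at an unadjusted p under 0.05). Their sum was also highest in WT replicate 2, by a small margin over DKO replicate 3. Among the 8 spermatid markers 1 was called, Akap4, which was higher. Of 10 erythroid markers, the globins Hba-a2 and Hbb-bs were at 0 in all 6 libraries. The globin Hba-a1 was at 1.75, 19.6 and 1.16 TPM in DKO and 3.75, 2.72 and 1.68 TPM in WT. It was highest in DKO replicate 2, and in WT replicate 2, the library with the most Blvrb, it was below WT replicate 1. The 10 erythroid markers summed to 28.1 to 52.5 TPM in DKO and 29.8 to 30.8 TPM in WT. Among WT libraries that sum was highest in WT replicate 2, by a small margin, as were 2 of the 10 markers. All 4 tested erythroid genes were higher in DKO, and 0 were called by edgeR (1 at an unadjusted p under 0.05). The part of these cell types in the difference of Blvrb was not tested.

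**Figure D3:**
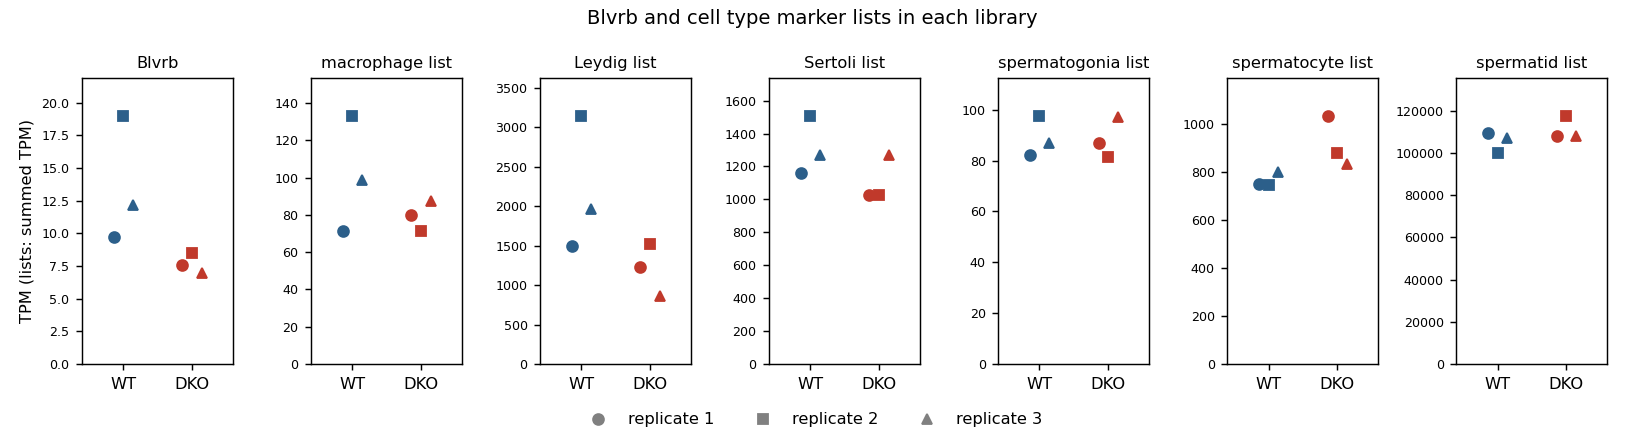
Blvrb in TPM (left panel) and the summed TPM of 6 marker lists (other panels), each from 0, in the 3 WT (blue) and 3 DKO (red) libraries; symbols mark the replicate. WT replicate 2 (blue square) is the highest library for Blvrb at 19.0 TPM and for the macrophage, Leydig and Sertoli lists. It is also highest for the spermatogonia list, by a small margin (97.6 TPM, against 97.3 TPM in DKO replicate 3). The spermatocyte list lies higher in all 3 DKO libraries.

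By the rule of highest correlation over the 6 libraries, the genes whose log2 CPM followed Blvrb most closely were Fkbp5 (Pearson's r 0.997), Rps2 (0.996) and Mgp (0.995), out of 15078 genes compared. Fkbp5 encodes a co-chaperone of steroid receptors, Rps2 a ribosomal protein and Mgp matrix Gla protein. Their log2 fold changes were -0.31, -0.14 and -1.01. The 6 points share library depth and fragment length, and these correlations are descriptions only.

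Blvra encodes biliverdin reductase A, the enzyme that converts biliverdin of the alpha form, the main product of heme oxygenase, to bilirubin (chr2:127070629-127097084, plus strand). Blvra was counted at 4.93, 4.999 and 5.54 CPM in DKO and 4.89, 5.64 and 6.53 CPM in WT. The groups overlapped, since WT replicate 1 was the lowest of all 6 libraries. DKO over WT, the log2 fold change was -0.14 (SE 0.129; adjusted p = 0.480 by edgeR).

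Set against each other per transcript length, the reductases stood in a different order in the groups. In TPM, Blvrb was at 9.70, 19.0 and 12.2 in WT, above Blvra at 7.72, 9.52 and 10.6 in each of the 3 libraries. In DKO, Blvrb was at 7.54, 8.46 and 6.96 TPM and Blvra at 8.08, 7.81 and 9.20 TPM, so Blvra was the higher of them in replicates 1 and 3. The log2 ratio of Blvra to Blvrb was 0.13 ± 0.260 in DKO and -0.51 ± 0.427 in WT (SD, n = 3 each), without overlap. The exact two-sided permutation test gave p = 0.1, the smallest that 3 against 3 libraries allow, and 0.167 after adjustment over the 5 ratios examined. When each library was left out in turn, the difference lay between 0.40 and 0.79.

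Slc48a1 encodes HRG1, a heme importer that moves heme from endosomes and lysosomes into the cytosol (chr15:97784365-97792692, plus strand). Counts of Slc48a1 were 18.7, 18.4 and 19.1 CPM in DKO and 21.0, 24.9 and 19.4 CPM in WT. The DKO libraries lay within 1 CPM of each other, and all were below the lowest WT library, replicate 3. With a log2 fold change of -0.22 (SE 0.0983) it did not pass the test (adjusted p = 0.155 by edgeR). Without WT replicate 2 it was -0.11 (adjusted p = 0.498). An exon of Hdac7 overlaps Slc48a1 on the opposite strand in GENCODE M21, and since strand handling is not given in the sources used here, reads of the pair may be mixed. No library held a fractional count of Slc48a1.

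Slc46a1 encodes a proton-coupled folate transporter that was also described as heme carrier protein 1 (chr11:78465701-78471945, plus strand). It was counted at 2.74, 3.18 and 3.63 CPM in DKO and 3.41, 3.97 and 3.72 CPM in WT. DKO replicate 3 lay inside the WT range, so the groups overlapped. This gave a log2 fold change of -0.21 (SE 0.148; adjusted p = 0.350 by edgeR). The counts behind these values were 90 to 245 fragments per library.

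Flvcr1 and Flvcr2 belong to the same family of major facilitator transporters. FLVCR1 is known as a heme exporter of the plasma membrane and as a choline transporter, and FLVCR2 has been described as a heme importer and as a choline transporter. Flvcr1 (chr1:191005832-191026190, minus strand) was counted at 7.74, 7.25 and 7.64 CPM in DKO and 7.10, 6.48 and 6.75 CPM in WT. In CPM every DKO library was above every WT library, by a small margin, whereas in TPM DKO replicate 2, at 2.63, was below all 3 WT libraries (2.64 to 2.67). At a log2 fold change of 0.16 (SE 0.0993) it did not pass the test (adjusted p = 0.302 by edgeR). Its counts carried fractions in all 6 libraries, which arises where fragments are shared with another gene, and an exon of A230020J21Rik overlaps it on the opposite strand.

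Flvcr2 (chr12:85746539-85813586, plus strand) was nearly level between the groups. It was counted at 64.6, 65.4 and 67.6 CPM in DKO and 70.4, 69.9 and 67.5 CPM in WT. DKO replicate 3 and WT replicate 3 met at the same level, so the groups overlapped by that pair alone. Its log2 fold change was -0.07 (SE 0.0656; adjusted p = 0.474 by edgeR), the smallest SE of the 10 genes. In TPM, Flvcr2 was far above Flvcr1 in every library, and the log2 ratio of Flvcr1 to Flvcr2 was -3.40 ± 0.0554 in DKO and -3.62 ± 0.0689 in WT (SD, n = 3 each). These ratios did not overlap (exact permutation test, two-sided, p = 0.1, adjusted 0.167).

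The balance of the importer HRG1 to the exporter FLVCR1 was examined in the same way. The log2 TPM ratio of Slc48a1 to Flvcr1 was 2.04, 2.11 and 2.08 in DKO and 2.32, 2.69 and 2.27 in WT. It was lower in every DKO library, by 0.35 in the mean (exact permutation test, two-sided, p = 0.1, adjusted 0.167, n = 3 each). The ratio of Slc48a1 to Slc46a1 overlapped between groups, at 2.16 ± 0.187 in DKO and 2.15 ± 0.145 in WT (SD, n = 3 each; exact permutation p = 0.9).

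Pgrmc1 and Pgrmc2 encode membrane-associated proteins with a cytochrome b5-like heme-binding domain. PGRMC1 binds and supports cytochromes P450, and PGRMC2 is known as a chaperone that delivers heme to the nucleus. Pgrmc1 (chrX:36598193-36606079, plus strand) was counted at 88.6, 91.7 and 87.0 CPM in DKO and 91.5, 121 and 110 CPM in WT. In CPM WT replicate 1 lay inside the narrow DKO range, and WT replicates 2 and 3 stood above all DKO libraries; in TPM the groups lay just apart, at 81.5 to 82.8 in DKO and 83.4 to 119 in WT. The log2 fold change was -0.27 (SE 0.0943), the second largest in size among the 10 genes, and it did not pass the test (adjusted p = 0.0776 by edgeR). DESeq2 gave -0.28 and called it (adjusted p = 0.0385; 17.2% of all genes were called in that fit), as did edgeR without WT replicate 1, at -0.39 (adjusted p = 0.0245; 11.7% called). Without WT replicate 2 it was -0.19 (adjusted p = 0.261).

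Pgrmc2 (chr3:41066326-41083046, minus strand) was counted at 89.9, 91.8 and 82.1 CPM in DKO and 93.5, 84.5 and 93.9 CPM in WT. In CPM both groups covered nearly the same range, whereas in TPM the DKO libraries, at 44.8 to 46.8, were all below the WT libraries, at 48.3 to 51.0. The log2 fold change was -0.04 (SE 0.0754; adjusted p = 0.726 by edgeR). The log2 TPM ratio of Pgrmc1 to Pgrmc2 was 0.83 ± 0.0475 in DKO and 1.03 ± 0.268 in WT (SD, n = 3 each), with overlap (exact permutation test, two-sided, p = 0.4).

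Hebp1 encodes a small cytosolic heme-binding protein whose cleaved N terminus attracts leukocytes (chr6:135137519-135168215, minus strand). Counts of Hebp1 were 4.18, 5.14 and 4.62 CPM in DKO and 3.72, 5.94 and 4.04 CPM in WT. The WT libraries held both the lowest and the highest value of all 6. A log2 fold change of 0.02 resulted (SE 0.173; adjusted p = 0.959 by edgeR). An exon of Fam234b overlaps it on the opposite strand, and no library held a fractional count of Hebp1.

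Bach1 encodes the heme-sensing repressor (chr16:87698954-87733346, plus strand). Bach1 was counted at 3.77, 3.75 and 3.83 CPM in DKO and 3.04, 5.04 and 3.75 CPM in WT. The DKO libraries were almost equal, with an SD of 0.0439 CPM, while the WT libraries enclosed them with an SD of 1.02 CPM. For Bach1 the log2 fold change was -0.07 (SE 0.170; adjusted p = 0.816 by edgeR). Without WT replicate 2 its sign turned, to 0.15 (adjusted p = 0.612).

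**Figure D4:**
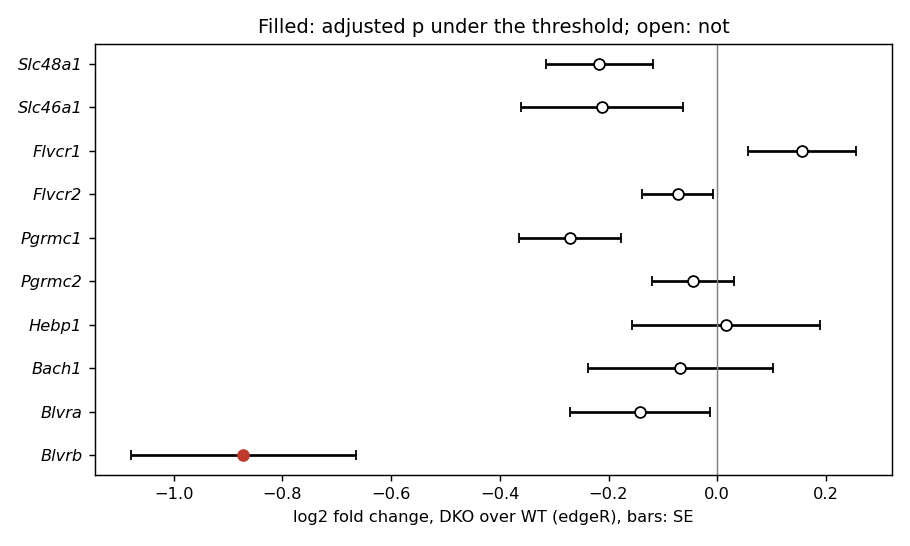
Log2 fold change of each gene, DKO over WT (horizontal axis), from the edgeR fit; error bars are the SE, and the filled point passed an adjusted p of 0.05. Blvrb lies at -0.87, and the other 9 genes lie between -0.27 and 0.16.

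The wider spread in WT was shared by most of these genes. The SD in CPM was larger in WT than in DKO for 8 of 10 genes, Flvcr2 and Slc46a1 being the exceptions. It was close for Pgrmc2 (5.34 CPM in WT, 5.12 CPM in DKO) and Flvcr1 (0.310 CPM in WT, 0.258 CPM in DKO). How many of all tested genes had a larger SD in WT, or were highest in WT replicate 2, was not counted. The highest WT value in CPM was in WT replicate 2 for 6 of the 10 genes (Slc48a1, Slc46a1, Pgrmc1, Hebp1, Bach1 and Blvrb), and the lowest was in WT replicate 1 for 6 of the 10. The coefficient of variation among WT libraries was 32.6% for Blvrb, 26.3% for Hebp1 and 25.8% for Bach1, and 2.23% for Flvcr2.

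Per transcript length, the PGRMC genes were the most abundant of the 10 genes. Pgrmc1 averaged 92.0 TPM over the 6 libraries (81.5 to 119), Pgrmc2 47.7 TPM (44.8 to 51.0) and Flvcr2 31.3 TPM (28.6 to 34.6), and none of these ranges overlapped. A middle group followed with Slc48a1 at 13.2 TPM, Blvrb at 10.6 TPM, Blvra at 8.82 TPM and Hebp1 at 8.53 TPM, where each gene overlapped the next in order. Slc46a1 at 2.96 TPM and Flvcr1 at 2.74 TPM overlapped each other and lay below that group, and Bach1 was lowest at 1.02 TPM (0.78 to 1.42). Pgrmc1 thus exceeded Bach1 by 90.5-fold, and stood at percentile 88.6 of all tested genes by mean TPM, with Bach1 at percentile 16.6.

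The neighbouring steps of heme handling were read from gene lists. Of 9 genes of heme synthesis 0 were called by edgeR (2 at an unadjusted p under 0.05), with a median log2 fold change of -0.07. The one with the smallest p was Urod, uroporphyrinogen decarboxylase, at 9.87, 11.3 and 12.1 TPM in DKO and 12.7, 14.7 and 15.2 TPM in WT (log2 fold change -0.34, SE 0.112; adjusted p = 0.0656 by edgeR). Both heme oxygenases, which make the substrate of the reductases, did not pass the test, and in CPM neither overlapped between groups. Hmox1, the inducible form, was at 9.45, 10.6 and 11.3 TPM in DKO and 11.02, 15.4 and 14.3 TPM in WT, with DKO replicate 3 above WT replicate 1 on this scale but not in CPM (log2 fold change -0.34, SE 0.116; adjusted p = 0.0726 by edgeR). Hmox2, the constitutive form, named after its values were seen, was far more abundant, at 966, 890 and 950 TPM in DKO and 854, 825 and 838 TPM in WT (log2 fold change 0.17, SE 0.0700, adjusted p = 0.123 by edgeR). The counts of Hmox2 carried fractions in all 6 libraries.

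Of 6 ABC transporters of heme and porphyrins 3 were called. They were the targeted genes Abcc12, lower, and Abcc5, higher, and Abcg2, a porphyrin exporter, which was higher at 21.9, 18.3 and 17.6 TPM in DKO against 15.4, 13.9 and 12.7 TPM in WT (log2 fold change 0.51, SE 0.115; adjusted p = 0.0301 by edgeR). Of 8 relatives of the 10 genes 7 were tested and 1 was called. That gene was Nenf, neudesin, which shares the cytochrome b5-like fold of the PGRMC proteins. Nenf was lower at 24.3, 26.3 and 16.8 TPM in DKO against 31.1, 40.6 and 36.8 TPM in WT (log2 fold change -0.79, SE 0.166, adjusted p = 0.0270 by edgeR). At 658 bases it is in the shortest length class with Blvrb, where 16.0% of genes were called lower.

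Among 6 partners and rivals of BACH1 at DNA, 0 were called by edgeR (1 at an unadjusted p under 0.05). The smallest p was that of Keap1, the inhibitor of NRF2, with a log2 fold change of -0.19 (SE 0.0740; adjusted p = 0.106 by edgeR). Among 13 genes known to carry BACH1 or NRF2 elements 1 was called, Fth1, the ferritin heavy chain, which was lower at 256, 289 and 283 TPM in DKO against 336, 429 and 359 TPM in WT (log2 fold change -0.46, SE 0.0915; adjusted p = 0.0263 by edgeR). The median of those 13 genes was -0.03. Fth1, at 943 bases, is also in the shortest length class, where 16.0% of genes were called lower.

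Of 5 genes for the scavenging of heme and hemoglobin 4 were tested and 0 were called by edgeR (2 at an unadjusted p under 0.05). The smallest p was that of Lrp1, the receptor for heme-hemopexin complexes, with a log2 fold change of -0.45 (SE 0.136; adjusted p = 0.0548 by edgeR). Of 7 cytochromes P450 and partners of PGRMC1, 2 were called in opposite directions. Cyb5r3, cytochrome b5 reductase, was lower (log2 fold change -0.39, SE 0.0949; adjusted p = 0.0349 by edgeR), and Cyp51, sterol demethylase, was higher (log2 fold change 0.38, SE 0.0984; adjusted p = 0.0384 by edgeR).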

How the data were processed

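Testis RNA from 3 DKO and 3 WT mice was quantified by the authors as RSEM gene tables, 1 per library and not pooled, per the file headers. The submitters' processing notes name STAR 2.7.0f, RSEM 1.2.31, DESeq2 1.12.3 and mm10 without giving roles; strand handling is not given in the sources used here. The deposited expected counts are estimates, and the deposited TPM values are scaled by effective length to 1 total per library, per the file headers. The deposited length and effective length are in bases, and their difference plus 1, over genes longer than 3000 bases, gave the mean fragment length.

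Expected counts were rounded, filtered with filterByExpr (17110 genes kept) and scaled by TMM, and DKO was compared with WT in edgeR 4.0.16 (quasi-likelihood test, genotype only, Benjamini-Hochberg over all tested genes, threshold 0.05), after checks on simulated data. The SE is the absolute log2 fold change over the square root of F. Ratios were compared by exact permutation over libraries. Alternatives used DESeq2 1.42.0, limma 3.58.1 on log2(TPM + 1) and log2(TPM + 0.1), other scaling, filters, an effective-length offset, thinning to the smallest total, a fragment length covariate and leaving out each library. Replicates are numbered in order of deposition and pair nothing. A count was taken as fractional beyond a tolerance of 0.001.

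The genes and lists were chosen with earlier results of these data known. The text names all 10 genes, both targeted genes, the called genes of each pathway list (at most 3 by smallest p, otherwise the one with the smallest p), the 3 genes most correlated with each called gene among those whose mean log2 CPM was 0 or more, and the most abundant marker of each list. Coordinates and symbols come from RefSeq GRCm38.p6, the same assembly as mm10.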

Additional observations from a re-analysis of the deposited data

How the results depend on the processing

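The number of the 10 genes called, 1 in the edgeR fit, was 2 with DESeq2 and 0 with limma on log2(TPM + 1), with limma on log2(TPM + 0.1) and with the fragment length covariate; it ranged from 0 to 2 over the 6 fits that left out a replicate. The whole table gave 1856 calls, against 2943 with DESeq2, 735 and 947 with limma on log2(TPM + 1) and log2(TPM + 0.1), 1 with the covariate (545 at an unadjusted p under 0.05), and 7 to 3029 when a replicate was left out (7 without WT replicate 3, 11 without DKO replicate 1, 13 without WT replicate 2, 655 without DKO replicate 2 and 3029 without DKO replicate 3). Of the calls 53.0% were higher in DKO, against 38.0% and 39.1% on the TPM scales, 26.0% without DKO replicate 2 and 0% in the fits with 1 to 13 calls (the covariate, and without DKO replicate 1, WT replicate 2 or WT replicate 3); over the other alternatives the share was 48.4% to 62.8%. Blvrb was lower throughout. It was not called with limma, at -0.71 and -0.77, or with the covariate, at -0.38; the cause was not tested. Signs turned only for genes that were not called: with the covariate for Slc46a1 (0.22), Bach1 (0.30) and Blvra (0.0637); without DKO replicate 3 for Pgrmc2 (0.0039; range over the fits without a replicate -0.10 to 0.0039); without WT replicate 2 for Bach1 (0.15; range -0.24 to 0.15); and for Hebp1 without DKO replicate 2 (-0.07), WT replicate 1 (-0.12) and WT replicate 3 (-0.07), within a range of -0.12 to 0.25. Of 150 refits of single genes 133 kept direction and side of the threshold. No paired analysis was possible because the replicate numbers follow the order of deposition. The SE was largest for Blvrb (0.206), Hebp1 (0.173), Bach1 (0.170) and Slc46a1 (0.148), the members with the lowest mean counts.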

Other observations

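The most abundant marker of each remaining cell type list was read as a value in its own right. Lyz2, lysozyme of macrophages, was at 19.8, 20.1 and 23.8 TPM in DKO and 21.8, 43.2 and 30.3 TPM in WT (edgeR log2 fold change -0.58, adjusted p = 0.0548). Clu, clusterin of Sertoli cells, was at 744, 749 and 945 TPM in DKO and 832, 1139 and 934 TPM in WT (log2 fold change -0.21, adjusted p = 0.183 by edgeR). Uchl1 of spermatogonia (0.00), Piwil1 of spermatocytes (-0.01) and Prm2 of spermatids (-0.11) had log2 fold changes near 0, none past the edgeR threshold. Alas2, the erythroid form of the first enzyme of heme synthesis, was the most abundant erythroid list member at 17.1 to 22.9 TPM in DKO and 17.4 to 21.7 TPM in WT. Among the globins, Hba-a2 and Hbb-bs were at 0 in every library, Hbb-bt and Hbb-b2 reached 1.10 TPM and Hbb-b1 reached 7.03 TPM, each in DKO replicate 2. Hbb-bt and Hbb-b2 had equal counts in every library, with fractions in 5 of them, so they are not separate measurements. How fragments were divided among the globin genes was not tested, so a value of 0 does not show that a globin transcript was absent.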
